A study of Mus musculus with 12 samples.

Results

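Caspases and the apoptosome are described here by 8 genes, chosen by symbol from the 24452 gene symbols of the deposited tables: Casp2, Casp6, Casp8, Casp9, Apaf1, Cycs, Xiap and Diablo. They are listed as 16 of the 35840 transcripts of the tables, and the estimated counts of the transcripts of each symbol were summed. All 8 passed the filter on low counts, which left 14739 genes to test. The libraries came from somatosensory cortex of male C57BL/6 mice at postnatal day 7, in 4 groups of 3. Wild-type mice (WT) and mice homozygous for a targeted disruption of Trp53 (KO, the gene of p53, in every cell of the body from conception) were injected with saline or with ethanol (EtOH), and cortex was collected 8 h later. Ethanol was given as a pair of injections. Part of the tissue was taken by laser microdissection and part by hole punch, and the labels do not tie either way to a library. The labels do not say whether the 3 libraries of a group came from separate litters, so p-values measure the spread between these libraries.

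In the intrinsic route of apoptosis, cytochrome c leaves the mitochondria and binds Apaf1, which assembles into the apoptosome and activates the initiator caspase-9. Caspase-9 then activates executioner caspases. Xiap binds and inhibits caspases, and Diablo (Smac), also released from mitochondria, relieves that inhibition. Caspase-8 starts the route from death receptors. Caspases are made as inactive precursors and activated by cleavage, so a transcript level is not a measure of caspase activity. In the developing cortex a wave of neuronal apoptosis takes place in the first postnatal weeks, and p53 is a transcription factor with target genes in this pathway, Apaf1 among them.

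The members lie on 7 chromosomes of the mm10 build and are named with the RefSeq models of the tables. The caspase genes were at chr6:42264985-42282508 for Casp2, chr3:129901415-129914112 for Casp6, chr1:58795374-58847503 for Casp8 and chr4:141793612-141815978 for Casp9. The other genes were at chr10:90989311-91082743 for Apaf1, chr6:50562563-50566474 for Cycs, chrX:42067836-42109664 for Xiap and chr5:123511330-123524164 for Diablo. The promoters of all 8 were found among the RefSeq promoter sequences of GRCm38.p6, with 3 for Xiap and 1 for each other gene, each running from 250 bases before to 50 bases after a start. The promoters of both partners of the apoptosome core are shown because they share a motif and because the genotype removes a factor that binds promoters. The 8 letters GCATGCGC, the core of sites for nuclear respiratory factor 1, are in capitals in both, read on the reverse strand in Apaf1, and TGACGTCA, the palindromic cAMP response element, is in capitals in Cycs. Both sequences are written in the direction of transcription.
Apaf1, chr10:91082694-91082993, minus strand: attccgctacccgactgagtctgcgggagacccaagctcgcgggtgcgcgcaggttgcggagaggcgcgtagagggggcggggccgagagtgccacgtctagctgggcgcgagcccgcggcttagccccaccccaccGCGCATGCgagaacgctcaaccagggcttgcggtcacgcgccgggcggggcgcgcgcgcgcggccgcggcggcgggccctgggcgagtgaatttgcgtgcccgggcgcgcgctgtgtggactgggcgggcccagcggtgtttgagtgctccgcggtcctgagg
Cycs, chr6:50566520-50566819, minus strand: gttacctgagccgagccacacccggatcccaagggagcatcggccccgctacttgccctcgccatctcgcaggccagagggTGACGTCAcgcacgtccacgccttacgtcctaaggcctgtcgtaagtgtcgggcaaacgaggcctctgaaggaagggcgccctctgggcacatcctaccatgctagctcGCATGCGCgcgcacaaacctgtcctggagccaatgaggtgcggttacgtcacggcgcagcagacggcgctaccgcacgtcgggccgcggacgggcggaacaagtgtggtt
On either strand, GCATGCGC was found in 2.71% of all 32851 promoters and TGACGTCA in 1.79%. The E2F-type letters TTTNNCGC were found in 5.17% of all promoters and, of the members, in Casp2. The consensus of a p53 half-site was found in 8.36% of all promoters and in none of the 10 windows of the members, which says only that the letters are not in these windows. The motifs do not overlap each other in the sequences shown.

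Total estimated counts ran from 719735 in KO EtOH replicate 1 to 17066392 in KO Saline replicate 2. The 2 smallest libraries, KO EtOH replicate 1 and WT Saline replicate 1 (1953154), are also the only ones whose names start with another letter (L rather than P), and the labels do not say what the letter stands for. Genes whose transcript with most counts is under 1500 bases took 46.6% of the counts in WT Saline replicate 2 and 35.1% in KO EtOH replicate 1. This share was 14.3% to 26.2% in the other 10. The 6 markers of cortical excitatory neurons were detected in all libraries, with summed levels of 429 to 1330 CPM (counts scaled to the library total). The summed level of the 5 erythroid markers was 336 to 743 CPM in WT Saline and 636 CPM in 1 library of KO EtOH, against 34.9 to 144 CPM in the others. The summed level of the 6 markers of thalamus or striatum, the neighbouring regions, was 398 to 955 CPM in WT EtOH against 127 to 152 CPM in WT Saline, 115 to 279 CPM in KO Saline and 176 to 520 CPM in KO EtOH. The WT EtOH libraries also lay above all WT Saline libraries for the 5 interneuron markers (380 to 479 against 85.0 to 270 CPM) and the 5 endothelial and mural markers (181 to 340 against 139 to 176 CPM), and the endothelial and mural markers of KO Saline were at 194 to 285 CPM. These levels move with the ethanol comparison in WT mice and, for the endothelial and mural markers, with the genotype comparison under saline. The erythroid markers also move with both comparisons. They were lower than in WT Saline in both, at 56.6 to 144 CPM in WT EtOH and 41.9 to 112 CPM in KO Saline. Tcf7l2, a marker of thalamus, was at 541 CPM in WT EtOH replicate 1 against a median of 4.65. In WT EtOH replicates 2 and 3 it was at 3.75 and 5.16 CPM. Ttr, of the choroid plexus, was at 5646 CPM in WT EtOH replicate 1, against a median of 77.7. It was at 2487 CPM in KO Saline replicate 1 and 2635 CPM in KO EtOH replicate 3. Trp53 had 3.67 to 26.2 normalised CPM in the WT Saline libraries, 7.23 to 20.03 in WT EtOH, 11.1 to 27.6 in KO Saline and 23.4 to 28.7 in KO EtOH. These are sums over the whole gene, which include exons outside a disrupted part, so they do not check the genotype, and KO below means the libraries labelled so. The part of these library differences in the results below was not tested except where a value without a library is given. In pieces of tissue, fewer cells of a type and less RNA per cell cannot be told apart.

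Per length, the members spanned a wide range of levels. In the deposited RPKM, summed over the transcripts of a gene, Cycs was highest with a median of 128 over the 12 libraries (72.5 to 241), and Diablo followed with 24.3 (17.7 to 29.0). These ranges did not overlap. Xiap had a median of 10.9 RPKM, Casp9 of 7.66, Casp2 of 5.01, Casp6 of 4.90, Apaf1 of 3.42 and Casp8 of 1.40. The ranges of each neighbouring pair from Diablo down overlapped. Diablo was above Xiap in 11 of 12 libraries, and Casp2 above Casp6 in 8 of 12, so the order of the middle members was not fixed. The caspases and Apaf1 were thus listed at far lower levels per length than the 2 mitochondrial proteins Cycs and Diablo. Counts were low for some of them in the smallest library, where Casp2 had 1 estimated count, Apaf1 3, Casp6 5, Casp8 6 and Casp9 9. A count of 0 in that library would allow up to 3 counts, or 4.17 CPM, and these limits cover counting error only.

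**Figure D1:**
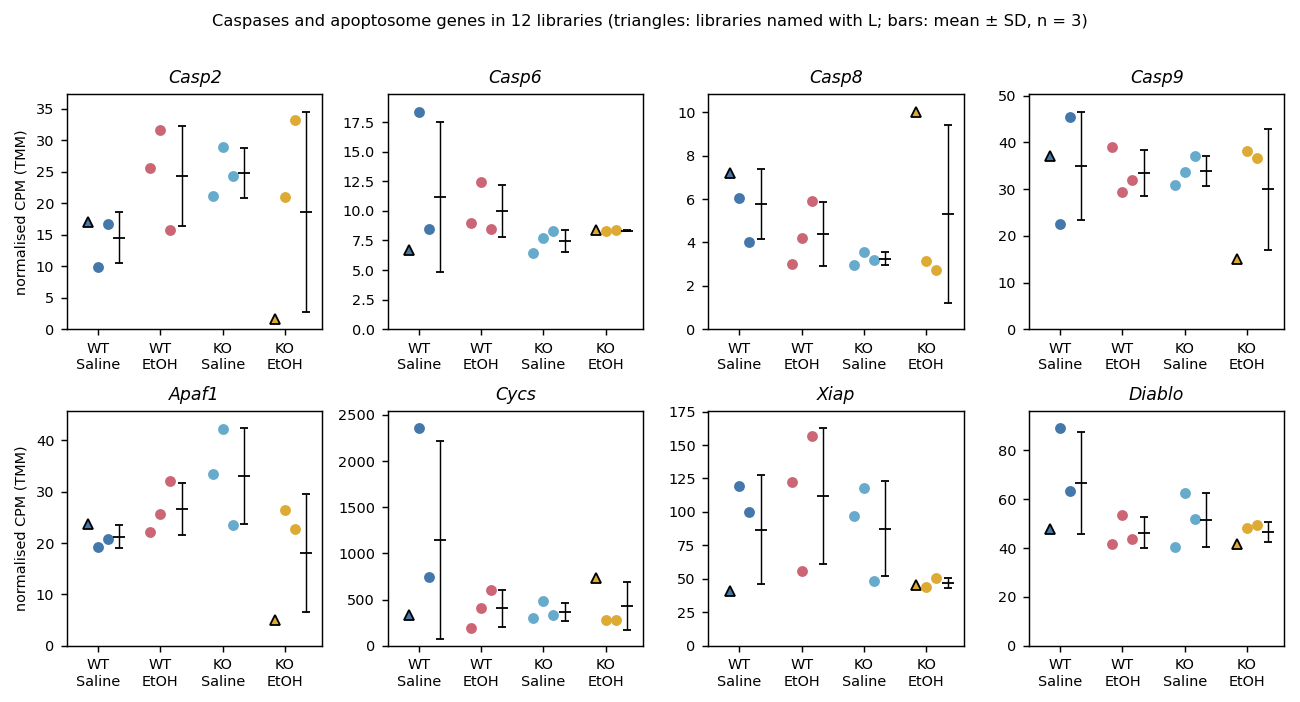
Normalised CPM (vertical axes, from 0, one scale per gene) of the 8 members in the 12 libraries, by group. Points are libraries, triangles the 2 libraries named with L, and the bars show the mean ± SD of 3 libraries. WT Saline replicate 2 stands at 2357 for Cycs, and KO EtOH replicate 1 is the lowest point for Casp2, Casp9 and Apaf1.

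None of the 8 members passed an adjusted p of 0.05 in any of the 5 comparisons (edgeR's quasi-likelihood test with Benjamini-Hochberg adjustment over all 14739 genes), and DESeq2 also called 0 members, where it called 3.31%, 0.0136%, 4.86%, 0.0204% and 1.73% of all genes in the order of the comparisons given next. At an unadjusted p under 0.05, 1 member passed in 3 of the comparisons each (Cycs in 2, Xiap in the other) and none in the other two. Over all genes, the shares that edgeR called at an adjusted p under 0.05 were 0.0746% for ethanol versus saline in WT mice, 0% in KO mice, 0.0543% for KO versus WT under saline, 0% for KO versus WT after ethanol and 0% for the Genotype x Treatment interaction. The study used a looser adjusted p of 0.30 for ethanol in WT mice, genotype and the interaction, but none for ethanol in KO mice. At 0.30 the shares of all genes here were 22.5%, 0%, 25.8%, 0% and 11.1% in the same order. The median log2 fold change of the 8 members was -0.13, -0.13, -0.21 and -0.17 in the 4 pairwise comparisons and 0.15 in the interaction, beside medians of all genes of 0.06, 0.01, 0.04, -0.03 and -0.11. At an unadjusted p under 0.05 the shares of all genes were 18.3%, 3.15%, 19.6%, 3.24% and 15.2%. A member called at the looser levels in either comparison that includes WT Saline is to be read against those shares.

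Cycs encodes cytochrome c, which carries electrons in the respiratory chain and triggers the apoptosome once released. In WT Saline it was at 333, 2357 and 749 normalised CPM in the 3 libraries, and in WT EtOH at 195, 410 and 605. In KO Saline it was at 296, 480 and 331, and in KO EtOH at 729, 278 and 277. WT Saline replicate 2 was more than 3 times any other library, and the groups overlapped in every comparison. The mean was 1146 ± 1069 (SD, n = 3) in WT Saline, 403 ± 205 in WT EtOH, 369 ± 97.8 in KO Saline and 428 ± 261 in KO EtOH.

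In WT mice, the log2 fold change of Cycs with ethanol was -1.51 (SE 0.67, adjusted p = 0.251, edgeR). Under saline, that of KO over WT mice was -1.63 (SE 0.67, adjusted p = 0.211). Both comparisons share the WT Saline libraries. In KO mice the log2 fold change with ethanol was 0.21 (SE 0.65, adjusted p = 0.999), and between the genotypes after ethanol it was 0.08 (SE 0.65, adjusted p = 0.998). The interaction, which asks whether the ethanol difference was the same in both genotypes, was 1.71 (SE 0.93, adjusted p = 0.401). Without WT Saline replicate 2 the first 2 differences were -0.45 (adjusted p = 0.77) and -0.57 (adjusted p = 0.699). On the deposited RPKM, as log2(RPKM + 1) in limma, they were -0.35 (adjusted p = 0.725) and -0.29 (adjusted p = 0.77). The sorted values of that RPKM are nearly the same in every library. In edgeR without TMM factors the differences were -0.84 (adjusted p = 0.352) and -0.94 (adjusted p = 0.303).

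Without the 2 libraries named with L, which leaves WT Saline replicates 2 and 3, the Cycs differences were -2.03 and -2.15, and both passed an adjusted p of 0.05 in edgeR (0.0216 and 0.014). In that fit 3220 and 3782 of 14967 genes passed as well. With WT Saline replicate 2 also left out, a setting chosen after the data were seen, 1 WT Saline library remained and the differences were -0.93 (adjusted p = 0.28) and -1.05 (adjusted p = 0.211). The library that decides the Cycs difference, WT Saline replicate 2, also had the highest share of counts in short transcripts, 46.6%. The Cycs model itself has 3123 bases. With each library's trend on transcript length and GC content removed, the Cycs differences were -1.43 (adjusted p = 0.2515, edgeR) and -1.56 (adjusted p = 0.259). What sets this library apart was not tested. Cycs also has processed pseudogene copies in the mouse genome, and how reads that match several places were counted is not given in the sources used here.

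**Figure D2:**
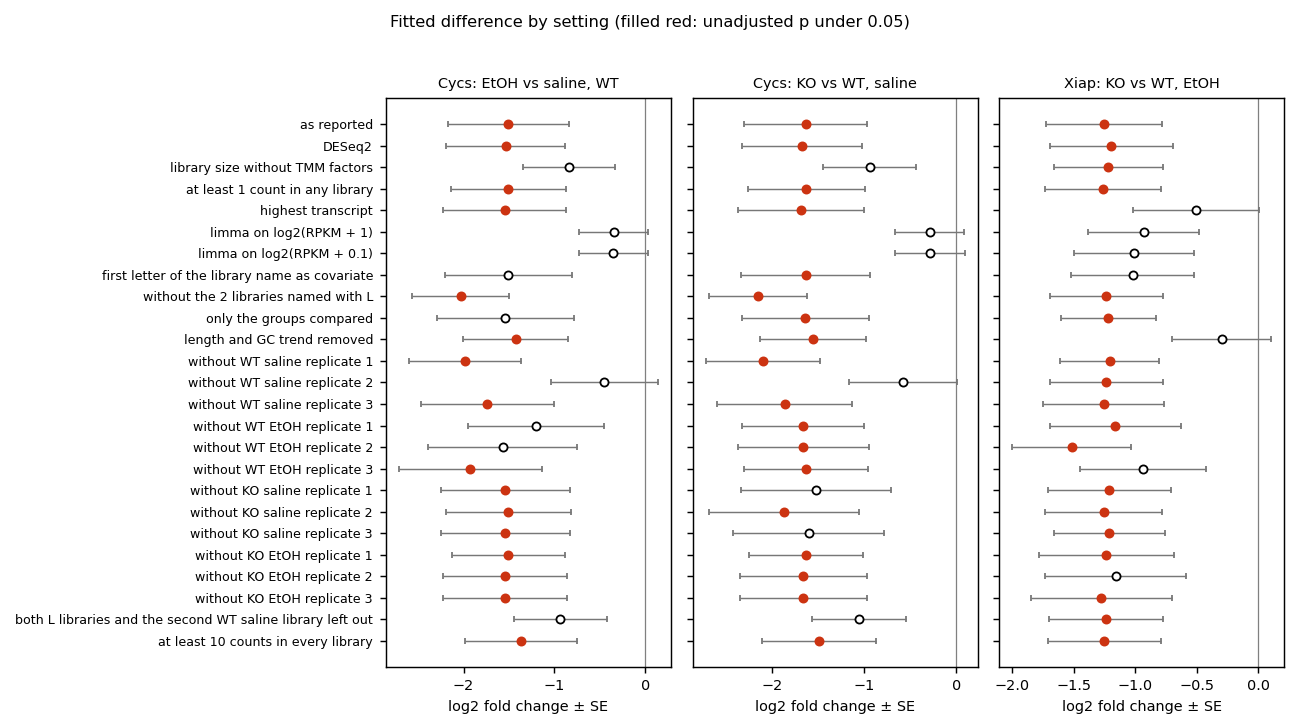
Log2 fold change (horizontal axes) of Cycs with ethanol in WT mice, of Cycs between genotypes under saline and of Xiap between genotypes after ethanol, for the fit as reported and each alternative (rows). Bars are the SE from the fit, and filled points have an unadjusted p under 0.05. Without WT Saline replicate 2 the Cycs values sit at -0.45 and -0.57, and with a trend on transcript length and GC content removed the Xiap value is -0.30.

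Xiap encodes the X-linked inhibitor of apoptosis, which binds caspase-9 and the executioner caspases. In WT EtOH it was at 122, 56.2 and 156 normalised CPM, and in KO EtOH at 45.1, 44.0 and 50.9. In WT Saline it was at 41.1, 119 and 100, and in KO Saline at 96.7, 118 and 48.4. The KO EtOH libraries lay below all WT EtOH libraries and close together, with a mean of 46.7 ± 3.73 (SD, n = 3) against 112 ± 51.0. The KO versus WT log2 fold change of Xiap after ethanol was -1.26 (SE 0.47, adjusted p = 0.982, edgeR). The difference with ethanol in KO mice was -0.90 (SE 0.47, adjusted p = 0.999), in WT mice 0.36 (SE 0.46, adjusted p = 0.691) and between the genotypes under saline 0.01 (SE 0.46, adjusted p = 0.997).

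The interaction for Xiap was -1.26 (SE 0.66, adjusted p = 0.386). The KO versus WT difference after ethanol kept its sign in each of the 24 alternatives and ran from -1.52 to -0.94 with single libraries left out. It was -0.30 (adjusted p = 0.975) with the trend on length and GC removed. The Xiap models are the poorest in GC of the members, with 37.0% to 39.5% GC. They have 5407 to 6670 bases, beside 5151 to 6577 for Apaf1. For its transcript with most counts alone it was -0.50 (adjusted p = 0.999).

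Diablo encodes the protein that displaces Xiap from caspases. It was at 47.8, 89.1 and 63.4 normalised CPM in WT Saline and at 41.7, 53.4 and 43.8 in WT EtOH. In KO Saline it was at 40.5, 62.5 and 51.8 and in KO EtOH at 41.8, 48.4 and 49.3. The highest value was again that of WT Saline replicate 2, and all groups overlapped. The log2 fold change with ethanol in WT mice was -0.53 (SE 0.32, adjusted p = 0.378), and the other pairwise differences were -0.37 for KO versus WT under saline, -0.14 for ethanol in KO mice and 0.02 for KO versus WT after ethanol.

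Apaf1 forms the wheel of the apoptosome. It was at 23.7, 19.3 and 20.9 normalised CPM in WT Saline and at 22.1, 25.6 and 32.1 in WT EtOH. In KO Saline it was at 33.4, 42.2 and 23.5, and in KO EtOH at 5.01, 26.4 and 22.7, the first of these from 3 estimated counts. The highest 2 values were those of KO Saline replicates 1 and 2, while KO Saline replicate 3 lay just under WT Saline replicate 1. The log2 fold change was 0.64 for KO versus WT under saline (SE 0.44, adjusted p = 0.424) and -0.76 with ethanol in KO mice (SE 0.44, adjusted p = 0.999). The interaction was -1.08 (SE 0.62, adjusted p = 0.421). With the trend on length and GC removed, the saline difference between genotypes was -0.15 and the interaction 0.02.

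Casp9, the initiator that Apaf1 activates, had the most even summed levels of the caspases. Its means were 35.0 ± 11.6 normalised CPM (SD, n = 3) in WT Saline, 33.4 ± 4.96 in WT EtOH, 33.9 ± 3.20 in KO Saline and 29.97 ± 13.0 in KO EtOH. The 4 log2 fold changes and the interaction lay between -0.12 and -0.05, with SEs of 0.38 for the pairwise differences and 0.54 for the interaction. The coefficient of variation over 12 libraries was 24.4%, against 99.95% for Cycs.

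Casp2, the caspase of the PIDDosome complex, was at 17.0, 9.92 and 16.8 normalised CPM in WT Saline and at 21.1, 28.9 and 24.4 in KO Saline. These groups did not overlap, with KO higher, but the log2 fold change of 0.78 (SE 0.56, adjusted p = 0.45) did not pass the test. In WT EtOH it was at 25.5, 31.6 and 15.8, and the log2 fold change with ethanol was 0.74 (SE 0.56, adjusted p = 0.477). In KO EtOH it was at 1.67, 21.0 and 33.2, the lowest from 1 estimated count.

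Casp8, the initiator of the death receptor route, was the scarcest member. It was at 7.20, 6.06 and 4.01 normalised CPM in WT Saline and at 2.98, 3.57 and 3.17 in KO Saline, without overlap. In WT EtOH it was at 3.00, 4.22 and 5.93, and in KO EtOH at 10.0, 3.16 and 2.73. The KO versus WT difference under saline was -0.79 (SE 0.54, adjusted p = 0.424). The value of 10.0 in KO EtOH came from 6 estimated counts, and Casp8 never exceeded 64 estimated counts in a library.

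Casp6, an executioner caspase that cleaves lamins, was at 6.68, 18.4 and 8.47 normalised CPM in WT Saline, with replicate 2 again highest. It was at 9.00, 12.5 and 8.43 in WT EtOH and at 6.40, 7.67 and 8.26 in KO Saline. In KO EtOH the 3 libraries were at 8.36, 8.29 and 8.37, above all KO Saline and below all WT EtOH libraries by narrow margins. The log2 fold changes were 0.16 with ethanol in KO mice (SE 0.45, adjusted p = 0.999) and -0.25 for KO versus WT after ethanol (SE 0.45, adjusted p = 0.982).

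Counting libraries rather than fits, the groups of a comparison did not overlap for 0 of 8 members with ethanol in WT mice, where 19.6% of all genes did not overlap, and for 1 with ethanol in KO mice (10.8%). They did not overlap for 2 members between genotypes under saline (22.9%) and for 2 after ethanol (12.7%). Read against those shares, these counts are no result about the members.

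**Figure D3:**
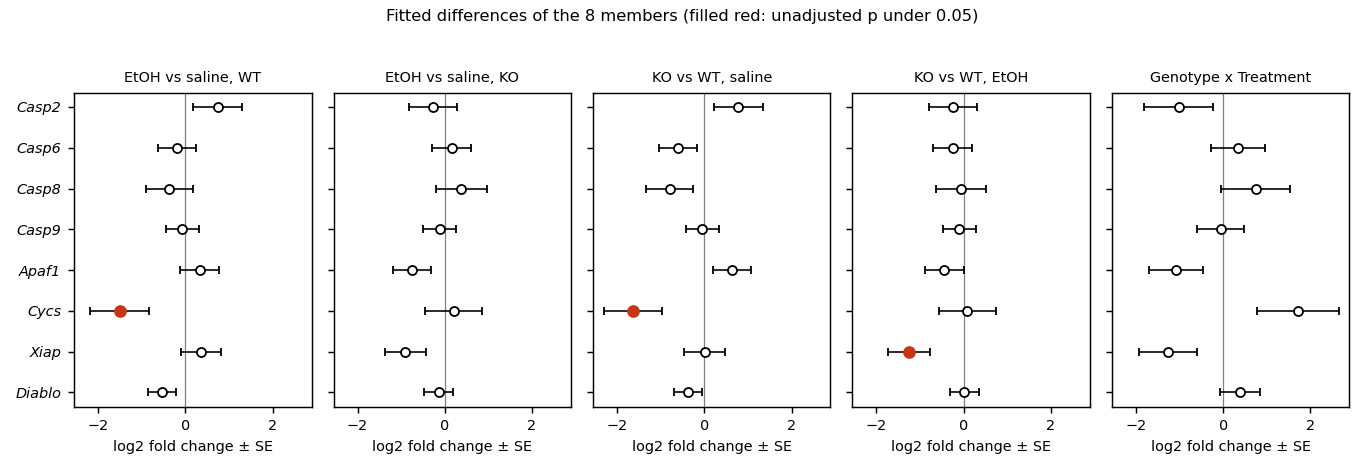
Log2 fold change (horizontal axes) of the 8 members in the 4 pairwise comparisons and the Genotype x Treatment interaction, with the SE from the fit over all 12 libraries. Filled points have an unadjusted p under 0.05. They are Cycs with ethanol in WT mice (-1.51), Cycs between genotypes under saline (-1.63) and Xiap between genotypes after ethanol (-1.26).

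The division of a gene among its transcripts varied more than the sums. Casp9 is listed as a transcript of 3897 bases (NM_015733) and one of 1498 bases (NM_001277932), with the same first and last base. The share of the short transcript in the estimated counts of Casp9 was 80.3%, 61.4% and 29.2% in WT Saline and 12.2%, 26.8% and 7.67% in WT EtOH. In KO Saline it was 11.9%, 7.82% and 22.8%, and in KO EtOH 80.3%, 18.0% and 20.4%. All WT Saline libraries lay above all WT EtOH and all KO Saline libraries. The mean difference was -41.4 percentage points with ethanol in WT mice and -42.8 between genotypes under saline, each with an exact two-sided permutation p of 0.1, the smallest that 3 against 3 allows. In KO EtOH the high value was that of the L library alone, and the difference with ethanol in KO mice was 25.4 percentage points with it and 5.02 without the L libraries. The share of all counts in genes under 1500 bases was also higher, at 22.2% to 46.6% in WT Saline and 35.1% in that L library against 14.3% to 21.0% in the others. Library by library the order was not that of Casp9. WT Saline replicates 1, 2 and 3 had 22.2%, 46.6% and 26.2%, and WT EtOH replicate 3, with 7.67% for Casp9, had 21.0%. The part of this share was not tested.

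Fitted transcript by transcript, the log2 fold change of the short Casp9 form with ethanol in WT mice was -1.92 (SE 0.61, adjusted p = 0.168 over 21715 transcripts, edgeR). For KO versus WT mice under saline it was -1.95 (SE 0.61, adjusted p = 0.152). Its interaction was 2.66 (SE 0.86, adjusted p = 0.221). The long form had 0.75 (SE 0.64, adjusted p = 0.553) and 0.77 (SE 0.64, adjusted p = 0.528) in the same comparisons. At an unadjusted p under 0.05, 18.2%, 19.1% and 15.3% of all transcripts passed in these 3 comparisons.

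Xiap is listed as 4 transcripts, of which NR_125870, a non-coding model of 5407 bases, is the shortest. It held 99.3%, 77.3% and 56.4% of the Xiap counts in WT Saline and 23.9%, 41.0% and 43.4% in WT EtOH. In KO Saline it held 37.6%, 38.0% and 53.1%, and in KO EtOH 99.3%, 37.5% and 53.7%. In estimated counts the pattern was that of Casp9, with all WT Saline libraries above all WT EtOH and all KO Saline libraries. The mean differences were -41.6 and -34.8 percentage points, each with an exact two-sided permutation p of 0.1, again the smallest possible. In shares of RPKM the difference between genotypes under saline was -27.8 percentage points (exact permutation p = 0.2). There KO Saline replicate 3 (56.3%) lay above WT Saline replicate 3 (55.5%). The difference with ethanol in WT mice was -35.2 percentage points without overlap. The short Casp9 form did not overlap in either comparison in shares of RPKM. The coding model NM_001301639, the longest, had an interaction of -3.32 (SE 1.26, adjusted p = 0.256 in edgeR). It had 0.063 estimated counts in WT Saline replicate 1 and 0.021 in KO EtOH replicate 1, the L libraries, which the fit rounded to 0. The difference of its share with ethanol in KO mice was -3.44 percentage points with these libraries and -1.33 without.

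Several of these divisions were the same figure in different libraries. For Casp8, Casp9, Apaf1 and Xiap alike, the shares in WT Saline replicate 1 and KO EtOH replicate 1, both named with L, were within 0.1 percentage points of each other for every transcript. Casp8 had the same 3 shares, 2.96%, 88.2% and 8.83%, in WT Saline replicate 2 and WT EtOH replicates 1 and 2 as well, so in 5 of 12 libraries. Of the 3556 genes with several transcripts and at least 3 counts in every library, 1604 (45.1%) were divided within 0.1 percentage points of WT Saline replicate 1 in KO EtOH replicate 1. In the other 10 libraries 236 to 1025 were. Such recurring shares cannot be taken as separate measurements of each library. Without these 2 libraries, the mean share of the short Casp9 form was still higher in WT Saline than in WT EtOH (45.3% against 15.5%) and than in KO Saline (14.2%), and the same held for NR_125870 of Xiap (66.8% against 36.1% and 42.9%).

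**Figure D4:**
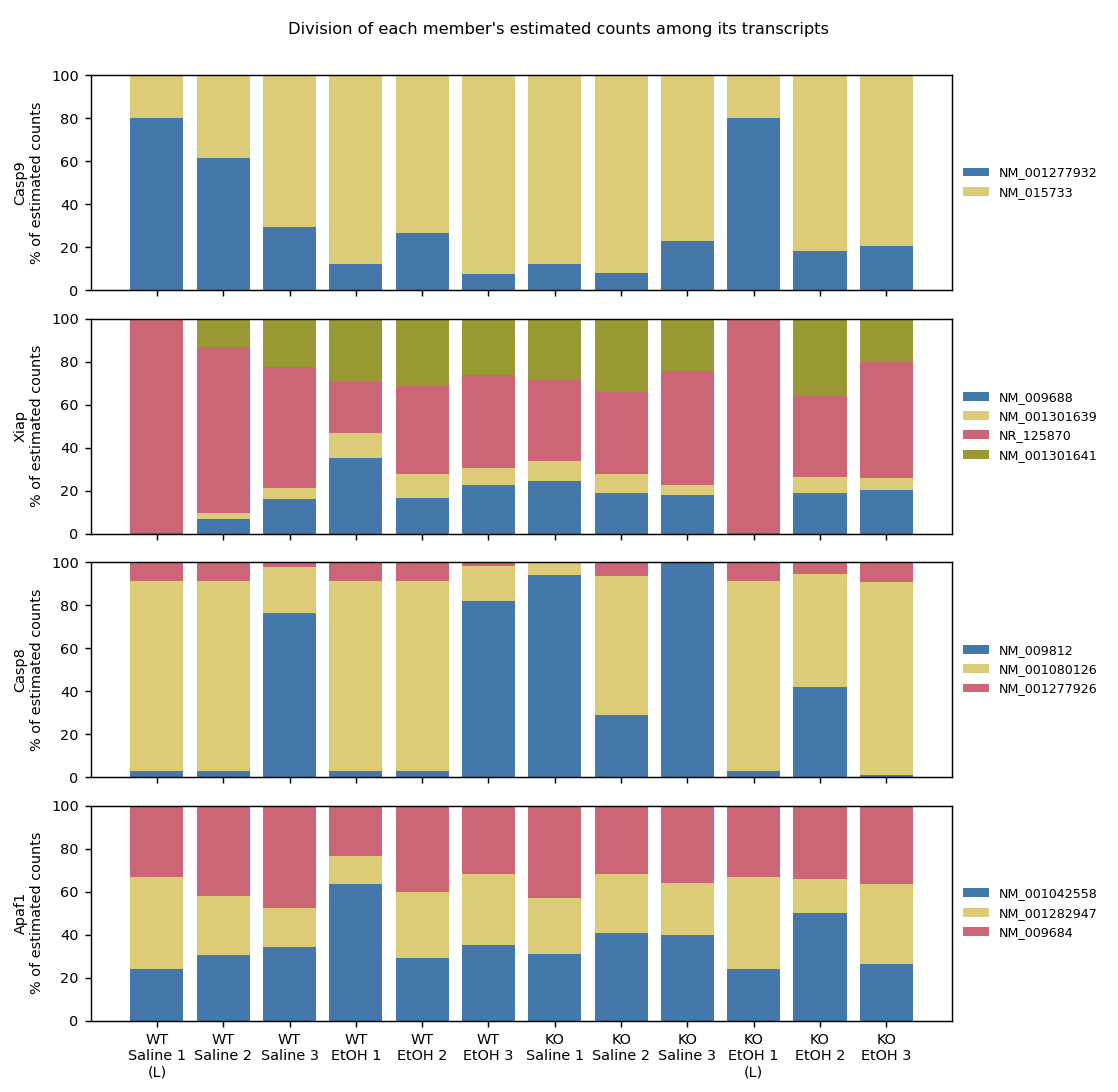
Share of the estimated counts of Casp9, Xiap, Casp8 and Apaf1 (vertical axes, percent) given to each transcript, in each of the 12 libraries (bars, colours for transcripts). The 2 libraries marked L have identical divisions in all panels, with 80.3% of Casp9 in NM_001277932 and 99.3% of Xiap in NR_125870.

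Across the 12 libraries the members did not rise and fall as a group. As a description over log2 normalised CPM, Pearson's r was 0.87 between Casp2 and Apaf1 and 0.82 between Casp2 and Casp9, but 0.31 and 0.42 in the 10 libraries not named with L. It was 0.74 between Cycs and Diablo and 0.71 between Casp6 and Diablo, and 0.86 and 0.72 in the 10 libraries. Casp8 and Cycs stood at 0.58 and, in the 10 libraries, at 0.84. Other pairs ran the other way, with -0.82 between Casp2 and Casp8 and -0.70 between Casp8 and Casp9. In the 10 libraries these were -0.73 and -0.59. All of these points share the same library sizes and scaling. Over the 12 libraries, the 2 genes of 14138 with the most similar pattern to Cycs were Vps29 and Ppia (both r = 0.99), and those to Xiap were Mgat4c (0.97) and Tmem106b (0.97). For Casp2 they were Lmnb1 and Cwf19l1 (both 0.98), for Apaf1 Dgke and Trpc6 (both 0.97), and for Diablo Slc30a6 (0.96) and Spin2c (0.94). For Casp9 they were Pold1 (0.95) and Mapkapk3 (0.94), for Casp6 Clec11a (0.94) and Pla2g12a (0.92), and for Casp8 Msantd1 (0.94) and Ppp1r1a (0.93). These similarities were not computed without the L libraries. They include KO EtOH replicate 1, with 1 estimated count of Casp2 and 3 of Apaf1, and WT Saline replicate 2, with Cycs at 2357 normalised CPM.

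Neighbouring genes of the pathway, 71 in 7 lists, were examined beside the members, of which 67 are in the tables and 59 were tested. None of the 59 passed an adjusted p of 0.05 in any comparison in edgeR. With ethanol in WT mice, the median log2 fold changes of the lists were -0.84 for the other caspases, 0.32 for the inhibitors of apoptosis, -0.36 for the mitochondrial death factors, -0.07 for the death receptor complex, 0.09 for the regulators, 0.41 for the caspase substrates and 0.48 for the Bcl2 family, beside 0.06 for all genes. For KO versus WT mice under saline, against the same WT Saline libraries, they were -0.56, 0.33, -0.42, -0.06, -0.29, 0.69 and 0.15, beside 0.04. At an unadjusted p under 0.05, 4 passed with ethanol in WT mice, 1 in KO mice, 10 between genotypes under saline, 0 after ethanol and 6 in the interaction. Over all genes the shares at that level were 18.3%, 3.15%, 19.6%, 3.24% and 15.2% in the same order, so the counts are no result about the pathway.

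Of the other caspases 4 of 6 were tested. For Casp12, a caspase of the endoplasmic reticulum, the KO versus WT difference under saline was -2.19 (SE 0.81, adjusted p = 0.187), at 0.62 ± 0.25 normalised CPM in KO and 2.77 ± 3.34 in WT mice. The WT Saline libraries were at 0.51, 6.61 and 1.19, with replicate 2 again highest. Those of KO Saline were at 0.61, 0.88 and 0.37, so the groups overlapped at low levels.

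The Bcl2 family, which controls the release of cytochrome c, had 14 of 15 genes tested. For Hrk, a death-promoting member of neurons, the log2 fold change with ethanol in WT mice was 1.71 (SE 0.57, adjusted p = 0.203, edgeR), at 18.6 ± 2.50 in WT Saline and 61.3 ± 39.3 in WT EtOH. For Bax, which opens the outer mitochondrial membrane, it was -1.09 (SE 0.39, adjusted p = 0.209), at 168 ± 74.7 and 78.9 ± 27.1. For Bcl2l2, a survival factor, it was 0.72 (SE 0.31, adjusted p = 0.243). Between the genotypes under saline, Bok, a relative of Bax, had -0.996 (SE 0.30, adjusted p = 0.176), at 41.1 ± 1.57 in KO and 82.0 ± 5.36 in WT mice. In that comparison Bax had -1.12, Hrk 1.32 and Bcl2l2 0.77, against the same WT Saline libraries. The median log2 fold change of the list with ethanol in WT mice was 0.48, beside 0.06 for all genes, with 2 of the 14 genes higher and 1 lower at an unadjusted p under 0.05, where 18.3% of all genes passed, so the count is not a result about the family.

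Of the regulators of the apoptosome and PIDDosome 7 of 8 were tested. Hspe1, a mitochondrial chaperonin, had -1.53 with ethanol in WT mice (SE 0.58, adjusted p = 0.215) and -1.71 for KO versus WT under saline (SE 0.58, adjusted p = 0.177). Its mean in WT Saline was 359 ± 343 normalised CPM, a spread as wide as that of Cycs. Xaf1, a partner and antagonist of Xiap, had 1.72 for KO versus WT under saline (SE 0.65, adjusted p = 0.191), at 2.95 ± 0.79 against 0.86 ± 0.53. Aven, an inhibitor of Apaf1, had an interaction of 1.74 (SE 0.71, adjusted p = 0.286). It was at 14.8 ± 0.58 normalised CPM in WT Saline and 7.33 ± 2.54 in WT EtOH. In KO Saline it was at 6.93, 8.20 and 7.08. In KO EtOH it was at 26.7, 8.61 and 7.04, the first of these in the smallest library.

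In the death receptor list 10 of 11 genes were tested. For Casp8ap2, a nuclear protein that binds caspase-8, the KO versus WT difference under saline was 1.10 (adjusted p = 0.237), that with ethanol in KO mice -1.17 (adjusted p = 0.999) and the interaction -1.65 (SE 0.70, adjusted p = 0.299). Its KO Saline mean was 24.9 ± 16.2 normalised CPM against 11.6 ± 3.01 in KO EtOH. Of the mitochondrial death factors 7 of 10 were tested, and Htra2, a mitochondrial protease that also binds Xiap, had an interaction of 1.10 (SE 0.49, adjusted p = 0.317). Of 7 further inhibitor of apoptosis genes tested, none had an unadjusted p under 0.05 in any comparison, and Birc6 had the smallest in the interaction, with -0.82 (SE 0.46, adjusted p = 0.414). Among 10 caspase substrates tested, Rock1 and Parp1 had an unadjusted p under 0.05 for KO versus WT under saline, with 1.25 (SE 0.53, adjusted p = 0.225) and 0.76 (SE 0.35, adjusted p = 0.247).

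In the other list and comparison pairs no gene had an unadjusted p under 0.05, and the gene with the smallest p is given with its log2 fold change, except for the other caspases with ethanol in WT mice. With ethanol in WT mice these were Naip6 (1.60) of the inhibitors, Bnip3 (-0.87) of the mitochondrial factors, Fadd (-0.83), the adaptor of caspase-8, and Dffb (1.082), the caspase-activated nuclease. With ethanol in KO mice they were Casp1 (-1.29), Naip2 (-1.42), Aifm2 (0.87), Aven (0.74), Pak2 (-0.55) and Pmaip1 (0.97), the gene of Noxa. Between genotypes under saline they were Naip6 (1.90) and Bnip3 (-0.79). After ethanol they were Casp12 (-1.92), Birc3 (-0.67), Htra2 (0.52), Tnfrsf21 (-0.63), Xaf1 (1.26), Pak2 (-0.44) and Hrk (-0.82), and in the interaction Casp1 (-0.41) and Rock1 (-1.45). Several of these, such as Naip6 and Naip2, lay under 1 normalised CPM on average in each group.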

How the data were processed

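Stranded total RNA-Seq libraries of postnatal day 7 cortex, 3 in each of 4 groups, were analysed. Per the study's methods, the authors filtered single-end reads by quality, aligned them with Bowtie in TopHat to mm10 (GRCm38) and used Partek Flow to assign them to RefSeq models. The deposited estimated counts are not normalised and can be fractions. The study describes RPKM as scaled by model length and library total. In the deposited RPKM, equal ranks held the same value in all libraries within 0.1% for 99.7% of ranks above 0. The sorted values are thus nearly the same in every library, which that scaling alone does not give. The step that made them so is not described in the sources used here. Replicates were numbered in accession order and pair nothing.

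Transcripts were summed per symbol and rounded. Genes kept by edgeR's count filter were fitted with edgeR (4.0.16) glmQLFit, TMM factors and 1 coefficient per group over all 12 libraries. Normalised CPM uses the same factors. Adjusted p is Benjamini-Hochberg over all genes. Transcript shares were compared with exact permutation tests. Alternatives were DESeq2 (1.42.0), limma (3.58.1) on log2(RPKM + 1) and log2(RPKM + 0.1), no TMM factors, filters of at least 1 count in any and at least 10 counts in every library, single transcripts, a covariate for the first letter of the library name, leaving out the 2 L libraries or each library, only the groups compared, and a trend on length and GC removed. The scripts were tested on simulated data. Depth was 719735 to 17066392 counts, so intervals at low counts are widest in the smallest library.

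The members and gene lists were chosen with earlier results of these data known. All 8 members are named. Of the other lists, genes with an adjusted p under 0.05 in any comparison were to be named, and otherwise the gene with the smallest p in a comparison; others named had an unadjusted p under 0.05 and were chosen after their values were seen. One gene that the rule names is not reported here. For each member the 2 genes with the highest r over log2(CPM + 0.5), among genes with a mean of at least 1 CPM, are given. RefSeq protein sequences were not used here.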

Additional observations from a re-analysis of the deposited data

Results flagged for a closer look

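The difference between the genotypes in the response to ethanol, tested as the Genotype x Treatment interaction at the adjusted level of 0.30 that the study used, passed for 2 of the 15 transcripts of the members tested and for none of the summed genes. Of all 21715 transcripts 12.1% passed at that level, so the count is not particular to the members. The short Casp9 transcript NM_001277932 had an interaction of 2.66 on the log2 scale (SE 0.86, adjusted p = 0.221, edgeR), with -1.92 for ethanol in WT mice and 0.74 in KO mice. The Xiap transcript NM_001301639 had an interaction of -3.32 (SE 1.26, adjusted p = 0.256), with 1.78 in WT mice and -1.54 in KO mice. Both values come from all 12 libraries, of which the 2 named with L had the same divisions among transcripts, with NM_001301639 rounded to 0 in both. Without these 2, a setting chosen after the data were seen, the interactions were 2.06 (SE 0.83, adjusted p = 0.223, edgeR) for the short Casp9 transcript and -2.57 (SE 0.93, adjusted p = 0.185) for the Xiap transcript, where 21.3% of 22195 transcripts passed the same level. The differences with ethanol in KO mice were then 0.52 and -1.31, and those in WT mice -1.54 and 1.26. As a share of the gene, the difference in KO mice went from 25.4 to 5.02 percentage points for the Casp9 transcript and from -3.44 to -1.33 for the Xiap transcript.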

How the results depend on the processing

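None of the members' 40 log2 fold changes passed an adjusted p of 0.05, and over the 24 alternatives 3 values did, all of Cycs. Of 927 values under the alternatives 825 kept their sign and 102 did not, none of the latter with an unadjusted p under 0.05. Depth limits Casp2, Casp6, Casp8, Casp9 and Apaf1 in the smallest library, and a filter of at least 10 counts in every library leaves 3 members. Leaving out the TMM factors moved the median of all genes to 0.49 in both comparisons with WT Saline and to -0.52 in the interaction. No paired analysis was possible because the labels give no shared replicate numbers. The cause of the changes below was not tested.

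Counts of members at an adjusted p under 0.05 became 1 (Cycs) without the 2 L libraries, with ethanol in WT mice and between genotypes under saline, and ran from 0 to 1 in the latter with single libraries left out (1 without WT Saline replicate 1). Counts of members are to be read against the share of all genes in the same fit, which moved with them. At an adjusted p under 0.30 the 1 member with ethanol in WT mice became 0 with limma at either pseudocount and with only the groups compared, 2 with the letter as covariate (where 22.0% of all genes passed) and 3 without the L libraries (55.4%), and 0 to 2 with single libraries left out (0.476% to 48.7%). Between genotypes under saline the 1 member became 0 with limma, 6 without the L libraries (56.4% of all genes) and 0 to 3 with single libraries left out (0.0599% to 50.4%), so these are no results about the members. Without TMM factors the 1 member was not Cycs in either comparison. It was Xiap (adjusted p = 0.266, edgeR) with ethanol in WT mice and Apaf1 (0.276) between genotypes under saline, where 27.5% of all genes passed in each. In the interaction the 0 became 1 with DESeq2 (18.2% of all genes), without TMM factors (13.6%), with at least 10 counts in every library (24.5%), without the L libraries (28.9%) and, at most, with single libraries left out (0 to 1, with 0% to 33.8% of all genes). At an unadjusted p under 0.05 the 1 member with ethanol in WT mice became 0 without TMM factors, with limma, with the letter as covariate, with only the groups compared and without the L libraries and WT Saline replicate 2, and 2 without the L libraries (37.3% of all genes), and was 0 to 2 with single libraries left out. With ethanol in KO mice it became 1 (Xiap) with only the groups compared and was 0 to 1 with single libraries left out. Between genotypes under saline it became 0 without TMM factors, with limma and without the L libraries and WT Saline replicate 2, 2 without the L libraries (39.2%), and was 0 to 1 with single libraries left out. After ethanol it became 0 for the transcript with most counts, with limma, with the letter and with the length and GC trend removed (0 to 1 with single libraries left out). In the interaction it became 1 with DESeq2 (Cycs), without TMM factors (Xiap), with at least 10 counts in every library (Xiap) and with the trend removed (Cycs), and was 0 to 1 with single libraries left out.

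The sign turned without TMM factors for Casp6 (0.41), Casp8 (0.067) and Casp9 (0.32) with ethanol in WT mice, Casp6 (0.0018), Casp9 (0.34) and Diablo (0.15) between genotypes under saline, Cycs (-0.0099) after ethanol, and Casp6 (-0.22) and Diablo (-0.11) in the interaction. With the length and GC trend removed it turned for Casp6 (0.39), Apaf1 (-0.35) and Xiap (-0.19) with ethanol in WT mice, Xiap (0.21) in KO mice, Casp6 (0.034), Apaf1 (-0.15), Xiap (-0.70) and Diablo (0.042) between genotypes under saline, Casp8 (0.091) after ethanol, and Casp6 (-0.17), Casp9 (0.39), Apaf1 (0.015), Xiap (0.40) and Diablo (-0.028) in the interaction. For the transcript with most counts it turned for Casp9 (0.75) and Xiap (-0.70) with ethanol in WT mice, Casp9 (0.77) and Xiap (-0.87) under saline, Casp8 (0.45) after ethanol and Xiap (0.37) in the interaction. With limma on log2(RPKM + 1) and log2(RPKM + 0.1) it turned for Apaf1 (-0.15 and -0.20) with ethanol in WT mice, Cycs (-0.13 and -0.13) in KO mice, Xiap (-0.17 and -0.18) under saline, Casp8 (0.24 and 0.24) and Cycs (-0.061 and -0.061) after ethanol, and Casp9 (0.13 and 0.14) in the interaction. Without the L libraries it turned for Xiap (-0.057) with ethanol in WT mice, Casp2 (0.11), Casp8 (-0.16), Casp9 (0.12) and Cycs (-0.43) in KO mice, Xiap (-0.39) under saline, Casp2 (0.15), Casp9 (0.16) and Cycs (-0.55) after ethanol, and Casp9 (0.23) in the interaction. Without WT Saline replicate 2 as well, a setting chosen after seeing the data, it turned for Casp6 (0.18) and Casp8 (0.078) with ethanol in WT mice, Casp2 (0.10), Casp8 (-0.17), Casp9 (0.12) and Cycs (-0.44) in KO mice, Xiap (-0.22) under saline, Casp2 (0.16), Casp9 (0.16) and Cycs (-0.56) after ethanol, and Casp6 (-0.046), Casp8 (-0.25) and Casp9 (0.61) in the interaction. Xiap under saline and Casp9 in the interaction also turned with DESeq2 (-0.027 and 0.036) and the letter (-0.14 and 0.20).

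With single libraries left out the sign turned for Casp6 (-0.47 to 0.34), Casp9 (-0.34 to 0.18) and Xiap (-0.029 to 0.62) with ethanol in WT mice, and for Casp2 (-0.87 to 0.13), Casp8 (-0.14 to 0.80), Casp9 (-0.29 to 0.14), Cycs (-0.41 to 0.47) and Diablo (-0.28 to 0.017) in KO mice. It turned for Casp9 (-0.30 to 0.20) and Xiap (-0.36 to 0.28) between genotypes under saline, for Casp2 (-0.82 to 0.16), Casp8 (-0.57 to 0.38), Casp9 (-0.25 to 0.16), Cycs (-0.54 to 0.49) and Diablo (-0.040 to 0.19) after ethanol, and for Casp6 (-0.19 to 0.65) and Casp9 (-0.30 to 0.22) in the interaction.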
